A study of Mus musculus with 2 samples.

Results

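The 50 mitosis genes are a named set of mouse genes for mitotic kinases and cyclins, the chromosomal passenger complex, the spindle checkpoint, the kinetochore, spindle motors, cytokinesis, condensin and anaphase. The rule lists them by name and uses no measured value, although the set was proposed with earlier results of these data known, and each was found by its gene symbol among 43346 genes with an Ensembl identifier, of which 21474 were protein coding. RNA came from the embryonic facial prominence, the tissue that builds the face and jaws, of healthy B6NCrl mouse embryos of mixed sex at embryonic day 15.5. There was 1 group of 2 libraries, labelled biological replicates 1 and 2, made from pools of 78 and 62 embryos with the same donor label, and no genotype, treatment or age was contrasted with it. No p-value was computed, because the design holds a single group. A spread over 2 pooled samples may be partly technical, and a pool hides how embryos differ from each other.

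Mitosis begins when cyclin-dependent kinase 1 bound to B-type cyclins phosphorylates many proteins, the chromosomes condense and a bipolar spindle forms. The spindle checkpoint holds the cell until every kinetochore is attached, and the anaphase-promoting complex then tags securin and cyclin B for destruction, so that the sisters separate and the cell divides. Most genes of this machinery are transcribed late in the cell cycle and are silent in resting cells, through repressor and activator complexes that meet at a promoter element called the cell cycle genes homology region (CHR), often with CCAAT boxes upstream of it. In the embryonic face, growth of the mesenchyme and epithelium depends on such division.

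All 50 genes were detected, at 1 TPM or more in both libraries (a level per transcript length and per library total), against 65.4% of all coding genes. Their median level was 53.4 ± 2.08 TPM (SD, n = 2), against 18.1 ± 0.0424 TPM over the 14052 coding genes detected. Levels ran from 9.52 ± 0.0212 TPM for Espl1, the protease separase, to 284.9 ± 17.6 TPM for Cdk1, a range of 29.9-fold. Gene TPM adds up all annotated transcripts, short noncoding ones included, so ranks between genes depend on the transcripts counted. The most abundant coding transcript of Cdk1 alone stood at 137 and 136 TPM, below that of Cks1b at 282 and 263 TPM. Of the 50, 48 lay above the median of detected coding genes, 14 exceeded 100 TPM and 12 lay in the top 10% of detected coding genes. Summed over the set, the level was 3983 TPM in replicate 1 and 3912 TPM in replicate 2. Deposited TPM include added control RNAs (spike-ins), which took 6.42% of TPM in replicate 1 and 10.1% in replicate 2. Differences in TPM between the libraries carry this unequal share, so these sums do not order the libraries by mouse RNA. In bulk RNA, a larger share of dividing cells and more RNA per dividing cell cannot be told apart.

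**Figure D1:**
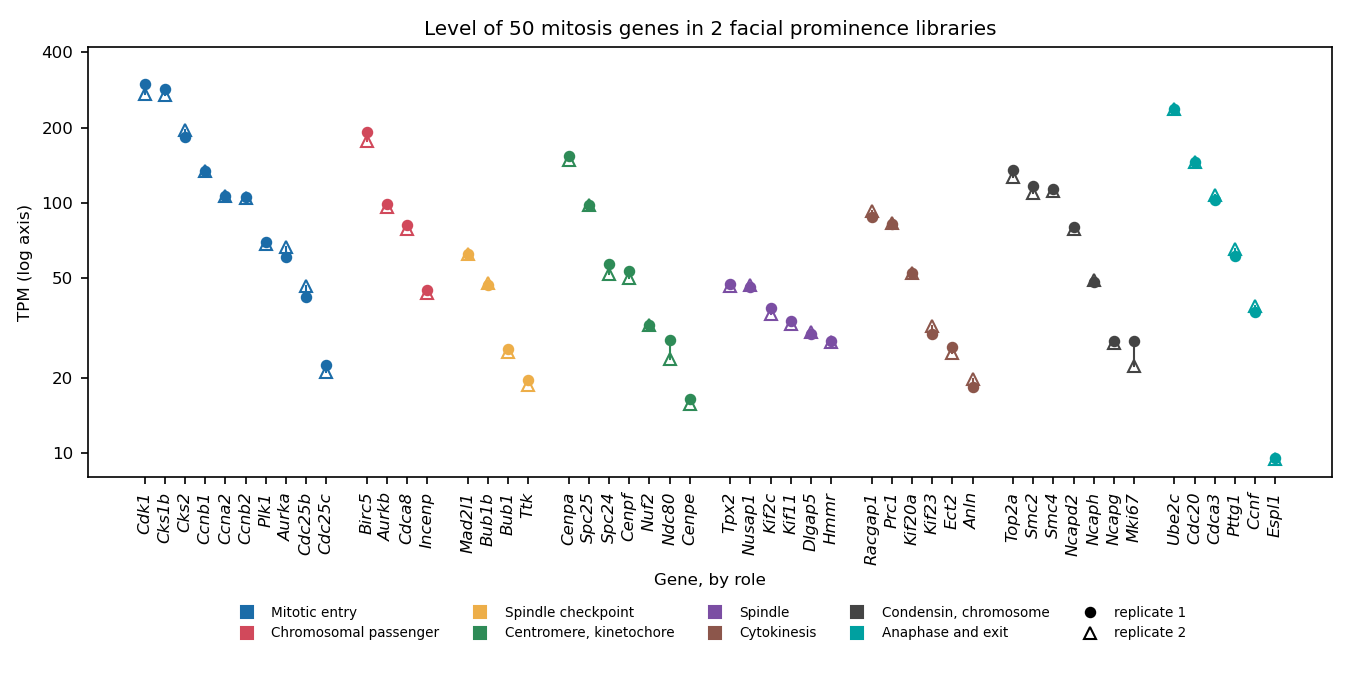
Level of each of the 50 mitosis genes in TPM (log axis), grouped by role, with filled circles for replicate 1 and open triangles for replicate 2 joined by a line. Both libraries nearly coincide for most genes, Cdk1 and Cks1b stand highest, Espl1 stands lowest at 9.52 TPM, and the widest gaps are those of Mki67 and Ndc80.

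Promoter sequences show what many of the genes have in common beyond their function. RefSeq start sites (GRCm38.p6) were given for 41 of the 50 genes, in 43 windows of 250 bases before the start and 50 after it. In 36 of the 43 windows, the end of the window was found near the beginning of an annotated transcript of the gene. The remaining windows were kept, so their start sites are less certain. The CHR was searched as TTTGAA and, in its other common form, as TTCGAA. Both strands were read, so the first form also appears as TTCAAA in the lines. The second motif was CCAAT, which reads ATTGG from the other strand, and the 2 motifs can overlap. The lines below give, for 1 gene of each role, 130 bases from 100 before the start to 30 from it on. In each role the gene with the highest level among those whose lines hold both motifs was taken, a choice made after the values were seen. Capitals mark the motifs.
Cdk1: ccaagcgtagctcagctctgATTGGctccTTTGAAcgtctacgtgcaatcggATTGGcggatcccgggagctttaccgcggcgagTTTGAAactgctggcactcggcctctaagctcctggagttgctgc
Cdca8: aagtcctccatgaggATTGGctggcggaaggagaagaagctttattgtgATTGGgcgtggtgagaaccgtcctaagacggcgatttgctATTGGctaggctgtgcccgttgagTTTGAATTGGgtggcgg
Bub1: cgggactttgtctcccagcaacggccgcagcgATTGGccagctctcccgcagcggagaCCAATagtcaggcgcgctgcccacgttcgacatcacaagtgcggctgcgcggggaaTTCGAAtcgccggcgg
Cenpa: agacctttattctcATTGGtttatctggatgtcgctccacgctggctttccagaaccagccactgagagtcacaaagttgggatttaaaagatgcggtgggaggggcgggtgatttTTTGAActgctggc
Kif11: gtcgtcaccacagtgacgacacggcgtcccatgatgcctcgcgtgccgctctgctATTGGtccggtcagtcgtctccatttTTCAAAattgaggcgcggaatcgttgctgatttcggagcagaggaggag
Racgap1: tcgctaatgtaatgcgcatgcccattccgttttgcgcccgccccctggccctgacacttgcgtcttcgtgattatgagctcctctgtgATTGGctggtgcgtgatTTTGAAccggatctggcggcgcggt
Top2a: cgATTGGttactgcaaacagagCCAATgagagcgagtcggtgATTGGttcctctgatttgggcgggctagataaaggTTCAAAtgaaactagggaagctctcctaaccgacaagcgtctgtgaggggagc
Ube2c: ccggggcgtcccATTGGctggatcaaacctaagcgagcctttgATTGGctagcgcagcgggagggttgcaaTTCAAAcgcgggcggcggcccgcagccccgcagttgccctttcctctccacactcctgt

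These stretches lie for Cdk1 at chr10:69352883-69353012 on the minus strand, Cdca8 at chr4:124936888-124937017 on the minus strand and Bub1 at chr2:127831830-127831959 on the minus strand. Those of the next genes are Cenpa at chr5:30666786-30666915 on the plus strand, Kif11 at chr19:37376282-37376411 on the plus strand and Racgap1 at chr15:99651627-99651756 on the minus strand. The last pair is Top2a at chr11:99024160-99024289 on the minus strand and Ube2c at chr2:164769829-164769958 on the plus strand. Counting the first transcribed base as 0, the CHR begins at -15 in Cdk1 with another at -71, at -19 in Kif11, -23 in Top2a and -29 in Ube2c. It begins after the start, at 5, in Racgap1, at 13 in Cdca8, at 14 in Bub1 and at 16 in Cenpa. In Cdca8 the CHR runs into an inverted CCAAT, as TTTGAATTGG. Each of the 8 lines also holds at least 1 CCAAT before the start, with 3 in Top2a and 3 before the start in Cdca8.

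The planned window was the 250 bases before the start. There the CHR occurred in 17 of the 41 genes (41.5%), against 18.4% of 17492 coding genes searched alike. In the whole window it occurred in 32 (78.0%), against 20.2%. Within 50 bases before to 50 after the start it occurred in 29 (70.7%), against 5.08%. This last window was chosen after the matches were seen, so its contrast is a description of these promoters. The 50 bases that follow the start held it in 19 genes (46.3%), against 2.37%, so the stretch before the start leaves out many of the matches. A CCAAT box occurred in the 250 bases before the start of 32 genes (78.0%), against 39.5%, and most often in the 50 bases next to the start, in 22 (53.7%) against 11.5%. Both motifs stood in the 250 bases before the start in 16 genes (39.0%), against 6.83%. A match describes letters and not a bound site, and no library here measured binding. Ccna2, Cdc25c, Aurkb, Incenp, Spc24, Tpx2, Dlgap5, Kif20a and Smc4 had no entry.

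**Figure D2:**
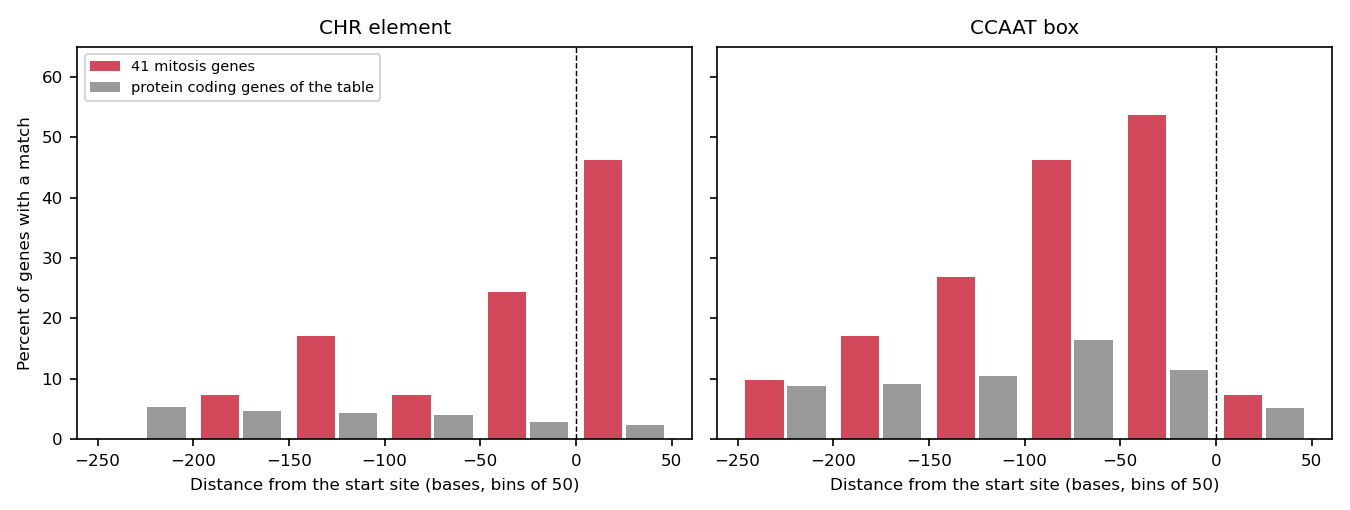
Percent of genes with a CHR (left) or a CCAAT box (right) in bins of 50 bases by distance from the start site (dashed line), for the 41 mitosis genes (red) and 17492 coding genes with RefSeq start sites, expressed here or not (grey). The CHR of the mitosis genes is most frequent in the bin after the start, at 46.3% against 2.37%, and CCAAT in the 100 bases before it.

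Genes of mitotic entry were the most abundant group by median, at 105.8 ± 0.385 TPM over 10 genes. Cdk1 (chr10:69335146-69352938), the kinase that drives entry, was listed at 297 TPM in replicate 1 and 272 TPM in replicate 2. The small adaptors that bind it, Cks1b and Cks2, reached 286 and 269 TPM and 183 and 196 TPM. Cks1b thus exceeded Cks2 in both libraries, by 0.55 ± 0.13 on the log2 scale, although Cks1b was lower in replicate 2 than in replicate 1 by TPM and Cks2 was higher. The cyclins varied less: Ccnb1 stood at 134 TPM in both libraries, Ccna2 at 106 TPM in both, and Ccnb2 at 106 and 105 TPM. Ccnb1 exceeded Ccnb2 by 0.34 ± 0.011 (log2), a small but even margin in both libraries, and by 0.22 ± 0.0256 on coding transcripts alone. Ccnb1 has a processed pseudogene, Ccnb1-ps, with 99.2% identity over 1287 bases, listed at 3.54 and 0.72 TPM, so reads of the pair could be split between them.

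The other entry genes activate Cdk1 or act beside it. Plk1, a kinase that acts from entry to cytokinesis, was listed at 70.0 and 68.3 TPM. Aurka, the centrosomal Aurora kinase, was listed at 61.0 and 66.7 TPM, below Aurkb of the passenger complex by 0.61 ± 0.12 (log2). The log2 ratio of Aurka to Aurkb was -0.34 ± 0.0995 on coding transcripts alone. Of the phosphatases that remove the inhibitory phosphates from Cdk1, Cdc25b stood at 42.0 and 46.5 TPM and Cdc25c, the lowest entry gene, at 22.5 and 21.04 TPM. Cdc25b exceeded Cdc25c by 1.02 ± 0.17 and Cdc25a, at 18.7 ± 0.0849 TPM, by 1.24 ± 0.0958 (log2). On coding transcripts alone these margins were 0.74 ± 0.0921 and 0.95 ± 0.0194. Of the 8 other genes of Cdk1 control, all were detected, with a median of 25.6 TPM, from Mastl (Greatwall kinase) at 6.34 ± 0.467 TPM to its substrate Arpp19 at 207 ± 4.596 TPM. The inhibitory kinases Wee1 and Pkmyt1, from the same list but outside the rule for names, stood at 17.5 ± 0.474 and 36.7 ± 1.87 TPM.

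The chromosomal passenger complex corrects wrong attachments and later guides cytokinesis. Its 4 genes had a median of 88.8 ± 2.21 TPM. Birc5 (survivin) stood at 192 and 177 TPM, the kinase gene Aurkb at 98.95 and 95.95 TPM, Cdca8 (borealin) at 81.8 and 78.6 TPM, and the scaffold Incenp at 44.9 and 43.6 TPM. The order of the 4 was the same in both libraries. Aurkc, the paralog of Aurkb known from germ cells, was listed at 0 in both libraries.

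The checkpoint genes had a median of 36.5 ± 0.00354 TPM. Mad2l1, which inhibits Cdc20 at unattached kinetochores, stood highest at 62.3 TPM in both libraries. Bub1b (BubR1) followed at 46.8 and 47.6 TPM. The kinase genes Bub1 and Ttk (Mps1) were lower, at 26.2 and 25.3 TPM and at 19.6 and 18.7 TPM. Bub1 lay below Bub1b by 0.88 ± 0.0531 (log2) and the 4 genes kept 1 order in both libraries. The rest of the checkpoint list was detected in 5 of 5, from Trip13, the ATPase that dismantles Mad2 complexes, at 22.4 ± 1.14 TPM to Bub3 at 138 ± 6.72 TPM.

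Genes of the centromere and kinetochore spanned the range from Cenpa to Cenpe. Cenpa (chr5:30666777-30674830), the histone variant that marks centromeres, stood at 154 and 148 TPM. Its most abundant coding transcript alone stood at 50.5 and 48.5 TPM, below that of Spc25 at 58.9 and 58.7 TPM. Cenpe, the large kinesin that carries chromosomes to the spindle equator, stood at 16.5 and 15.7 TPM. Cenpf, a large protein of the outer kinetochore, stood at 53.3 and 49.9 TPM. The 4 subunits of the NDC80 complex, which grips microtubules, were unequal: Spc25 was listed at 98.0 and 98.4 TPM, Spc24 at 56.9 and 51.7, Nuf2 at 32.5 in both, and Ndc80 at 28.4 and 23.8. The highest exceeded the lowest 3.79 ± 0.482-fold, although the proteins assemble in equal numbers. Spc24 and Spc25, which form the inner end of the rod, both stood above Nuf2 and Ndc80, which form its outer end, in both libraries. The 33 other kinetochore genes were all detected, at a median of 22.1 ± 0.233 TPM, from Kntc1 (Rod) at 5.32 TPM to Zwint at 138 TPM.

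Spindle genes spanned a narrower range than any other role, at a median of 35.1 ± 1.12 TPM. Tpx2, which activates Aurora A on the spindle, was listed at 47.4 and 46.5 TPM and Nusap1, a microtubule bundler, at 45.9 and 47.1 TPM. Kif2c (MCAK), which shortens microtubules, stood at 38.1 and 36.0 TPM, and Kif11 (Eg5), the motor that pushes the poles apart, at 33.7 and 32.6 TPM. Dlgap5 (HURP), at 29.8 and 30.5 TPM, and Hmmr, at 28.1 and 27.9 TPM, stood lowest in both libraries. Of 12 other kinesin genes, 11 were detected at a median of 11.9 TPM over all 12, with Kif3a, a kinesin of cilia, highest at 67.2 TPM and Kif2b listed at 0.

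The cytokinesis genes had a median of 41.7 ± 0.894 TPM. Racgap1 and Kif23, the 2 parts of centralspindlin, differed 2.91 ± 0.0365-fold, at 87.8 and 92.6 TPM for Racgap1 and 29.95 and 32.15 TPM for Kif23. Prc1, which crosslinks the midzone, stood at 82.1 and 83.4 TPM, and the midzone kinesin Kif20a at 52.2 and 52.6 TPM. Ect2, which activates RhoA, and Anln (anillin), which scaffolds the contractile ring, stood lowest, at 26.5 and 25.2 TPM and at 18.4 and 19.7 TPM. The order of the 6 was the same in both libraries.

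Of the chromosome genes, Top2a, the topoisomerase that untangles sister DNA, was listed highest at 135 and 127 TPM. The 5 condensin I genes ranged from 117 and 109 TPM for Smc2 and 114 and 111 TPM for Smc4, through 79.96 and 78.87 TPM for Ncapd2 and 48.4 and 48.9 TPM for Ncaph, to 28.1 and 27.6 TPM for Ncapg. As listed, the highest exceeded the lowest 4.09 ± 0.0845-fold. The SMC pair is shared with condensin II, whose own 3 genes were Ncaph2 at 122 ± 7.13 TPM, Ncapd3 at 14.1 ± 0.636 TPM and Ncapg2 at 11.9 ± 0.771 TPM. Ncapg exceeded Ncapg2 by 1.23 ± 0.0766 (log2), and by 1.13 ± 0.0895 on coding transcripts. Ncapd2 exceeded Ncapd3 by 2.50 ± 0.0795 (log2), but by 1.56 ± 0.0267 on coding transcripts and 1.71 ± 0.0370 with all counts placed on the longest coding transcript. The log2 ratio of Ncaph to Ncaph2 was negative on each of these scales, at -1.32 ± 0.0956, -0.80 ± 0.0704 and -0.94 ± 0.0194. Mki67, the Ki-67 antigen that coats mitotic chromosomes and is the usual stain for dividing cells, stood at only 28.1 and 22.3 TPM, rank 45 of the 50.

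Among the genes of anaphase and exit, Ube2c, the ubiquitin-conjugating enzyme of the anaphase-promoting complex, stood at 238 TPM in both libraries. Its activator Cdc20 stood at 146 TPM in both, above the later activator Fzr1 (Cdh1), at 78.7 ± 2.53 TPM, by 0.89 ± 0.0489 (log2). On coding transcripts alone Cdc20 exceeded Fzr1 by 1.26 ± 0.0120. Cdca3, at 103 and 108 TPM, and Ccnf (cyclin F), at 36.6 and 38.8 TPM, belong to ubiquitin ligases of the SCF type. Pttg1 (securin) was listed at 61.3 and 65.6 TPM and its target Espl1 (separase, chr15:102296266-102324357) at 9.53 and 9.50 TPM. The inhibitor exceeded the protease by 2.74 ± 0.0730 (log2), and by 1.49 ± 0.0584 with all counts placed on the longest coding transcript. Espl1 was the only member under 10 TPM in either library. All 14 subunits of the complex were detected at a median of 88.2 ± 0.0884 TPM, from Anapc10 at 13.5 TPM to Anapc5 at 238 TPM. Of 5 regulators, 4 were detected, with the chain-elongating enzyme Ube2s highest at 259.6 ± 5.32 TPM and the deubiquitinase Usp44 lowest at 0.54 ± 0.0283 TPM.

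Genes of cell cycle transcription control had a lower median level than the mitosis genes, although some of them stood above that of the mitosis genes. Whether their products act on the promoters described above was not measured. All 20 genes of transcription control were detected at a median of 19.5 ± 0.714 TPM, from Lin54, the DNA-binding subunit that reads the CHR, at 7.76 ± 0.721 TPM to the histone chaperone Rbbp4 at 258 ± 5.42 TPM. Outside the rule for names, the activators Foxm1 and Mybl2 (B-Myb) stood at 20.8 and 25.3 TPM and at 19.0 and 19.4 TPM. The 3 subunits of the CCAAT-binding factor, Nfya, Nfyb and Nfyc, stood at 11.2 ± 0.184, 33.6 ± 0.375 and 74.6 ± 5.08 TPM. As a reference for cells in other phases, 16 of 16 genes of the G1/S transition and DNA replication were detected at a median of 81.2 ± 0.757 TPM, from Cdc6 at 18.0 TPM to Pcna at 161 TPM.

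Gene TPM adds up all annotated transcripts, so it was read beside the transcript tables. The 50 genes had 249 annotated transcripts, with 1 for 14 genes and up to 14, in Racgap1. The leading transcript was the same in both libraries for 50 of 50 genes, took a median of 90.6% of the gene's TPM, and was coding in 48. In the 14 genes with 1 transcript, the leading transcript, its type and its share were fixed by the annotation. Shares over all genes were not computed for any count in this paragraph, so these counts only describe the set. Coding transcripts took 90% or more of the TPM in 37 genes and under 80% in 9. The shares come from reads divided among overlapping models, so short models rest on few reads.

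**Figure D3:**
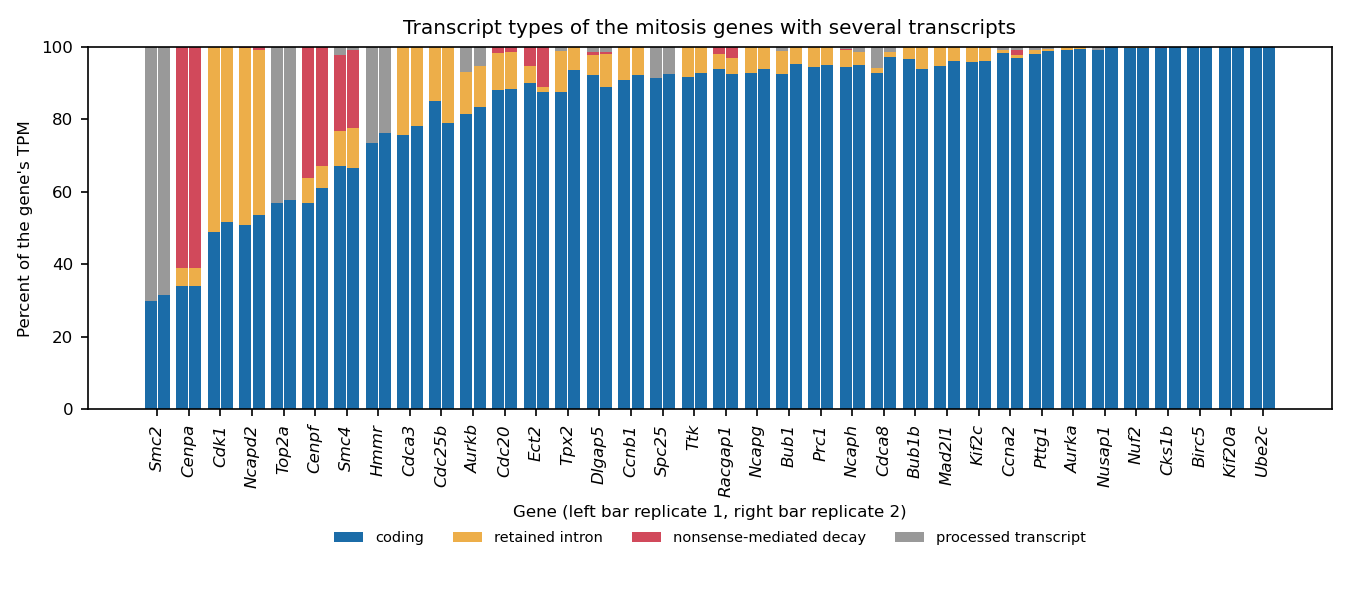
Percent of each gene's TPM on coding, retained-intron, nonsense-mediated decay and processed transcripts, for the 36 mitosis genes with several annotated transcripts, with replicate 1 as the left bar and replicate 2 as the right bar. Smc2 and Cenpa lie under 50% coding in both libraries, and the 2 bars of a gene are close in height for most genes.

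The 2 genes whose leading transcript was not coding were Smc2 and Cenpa. In Smc2 a processed transcript of 643 nucleotides, Smc2-203, took 58.7% and 60.6% of the TPM, from 916 and 927 counts. The coding Smc2-201 of 5404 nucleotides took 15.8% and 14.7% of the TPM but 2405 and 2187 counts. In Cenpa a transcript annotated for nonsense-mediated decay, Cenpa-202, took 51.1% and 49.8%, and the coding Cenpa-205 took 32.8% and 32.7%. The same division was thus seen in both libraries.

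In 6 genes the leading transcript took under 50%, by the mean of both libraries. Cdk1-202, coding, took 46.0% and 49.8% of the TPM of Cdk1, and the short retained-intron models Cdk1-204 and Cdk1-203 took 24.4% and 26.0%, and 25.9% and 21.4%. Cenpf-203, of 3001 nucleotides, took 42.0% and 46.8%, whereas Cenpf-204, which is 11130 nucleotides long, took 14.8% and 14.3% with more counts, 2148 and 2017 against 1601 and 1742. In Cdca3, Cdca3-206 took 27.6% and 26.1%, with Cdca3-201 close behind at 25.3% and 24.4%. Prc1-206 took 35.2% and 34.9% of Prc1, and Dlgap5-201 took 48.0% and 46.0% of Dlgap5. Of the 6, Tpx2 differed most between libraries, with Tpx2-202 at 31.8% and 46.7%, while the gene's own TPM differed little. Coding models together held 94.8% of the TPM of Prc1, 90.6% of Tpx2 and 90.7% of Dlgap5, but 50.3% of Cdk1, 59.0% of Cenpf and 76.9% of Cdca3.

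Because short models raise TPM for each read, levels were also computed by placing all counts of a gene on its longest coding transcript. The gene TPM exceeded that level by over 1.5 times in 11 of 50 genes, led by Smc2 (3.72 times), Cdk1 (3.62), Birc5 (3.58) and Cenpf (3.51). Cdk1 then stood at 80.1 and 77.2 TPM and Smc2 at 31.5 and 29.2 TPM. The scale is a poor one where the longest model is little used: Cdk1-201 took 1.51% and 1.84% of the TPM of Cdk1, and the leading coding Cdk1-202 alone stood at 137 and 136 TPM. In condensin I the span on this scale was narrower, at 1.73 ± 0.00205-fold against 4.09-fold, with Smc4 at 47.5 and 46.2, Ncaph at 46.6 and 47.1, Ncapd2 at 45.2 and 46.0, and Ncapg at 27.5 and 27.2 TPM. The longest model of Smc4, Smc4-201, itself held 643 and 518 counts, fewer than Smc4-206 with 1843 and 1901. Counting instead the TPM of coding transcripts at least 80% as long as the longest, the span of condensin I was wider, at 8.49 ± 1.76-fold, from Smc4 at 6.31 and 4.78 TPM to Ncaph at 45.8 and 46.5 TPM. The order of the condensin subunits thus differed between these scales. The passenger complex spanned 4.16 ± 0.144-fold as deposited, 1.91 ± 0.0255-fold on the longest coding transcript and 18.7 ± 2.99-fold on near full-length coding transcripts. Birc5 was the highest subunit on the first of these scales and the lowest on the last. Its longest coding transcript took 2.03% and 2.73% of its TPM and the short Birc5-201 took 98.0% and 97.3%. The NDC80 complex spanned 3.41 ± 0.415-fold on the longest coding transcript and 3.45 ± 0.444-fold on near full-length ones, but 2.27-fold on the leading coding transcript alone. Centralspindlin spanned 2.61-fold on the first 2 of these scales and 2.19-fold on the last.

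**Figure D4:**
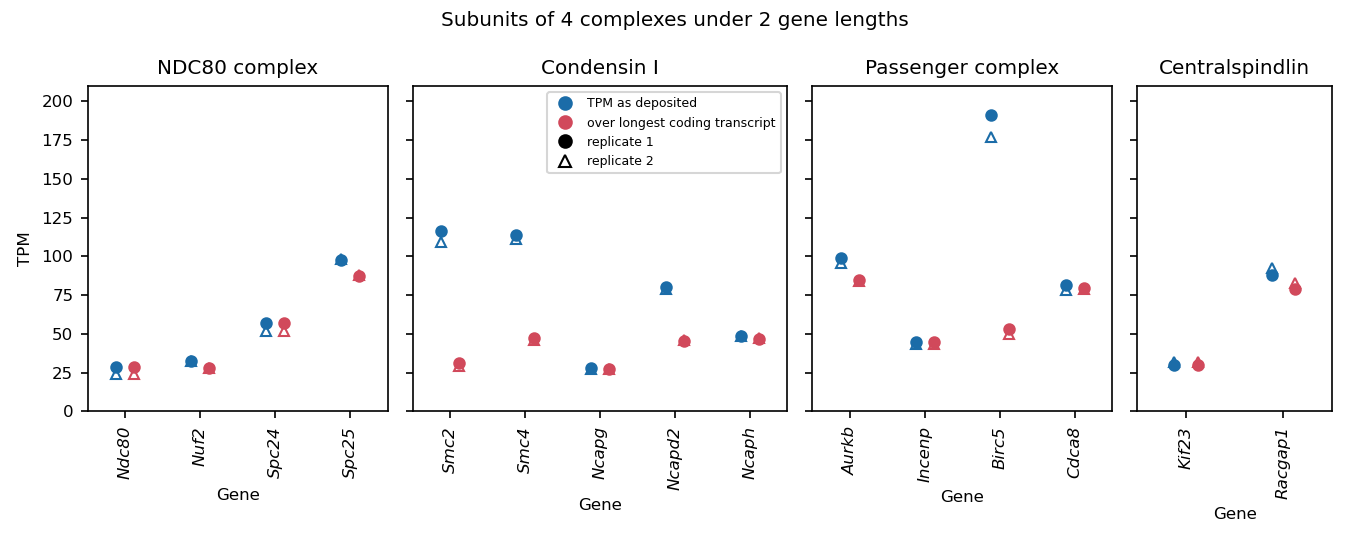
Level in TPM of each subunit of 4 complexes, as deposited (blue) and with all counts placed on the longest coding transcript (red), with circles for replicate 1 and triangles for replicate 2. The condensin I subunits span 4.09-fold as deposited and 1.73-fold in red, but 8.49-fold on near full-length coding transcripts (not drawn), whereas Spc25 stays above Ndc80 and Racgap1 above Kif23 on both scales.

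Depth was high for these genes, with 996 to 10708 expected counts for each gene in a library and sums of 181248 and 186021. The median SD over the 2 libraries was 2.50% of the mean TPM, and it exceeded 5% in 8 of 50 genes. Ratios of replicate 2 over replicate 1, after scaling by the trimmed mean of M-values (TMM), had a median of -0.013 (log2) over the 50 genes against 0.0043 over 15721 coding genes. That sign turned with total-count scaling (0.018, all coding 0.035), and with spike-in scaling the median was -0.67, with all coding genes at -0.65. The median size of the ratio, sign aside, was 0.036 for the mitosis genes, 0.10 for those coding genes and 0.066 for the 7687 with a mean of 1000 or more counts.

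None of the 50 ratios passed 1.5-fold, against 6.5% of the coding genes (4.36% higher and 2.14% lower in replicate 2) and 0.481% of those with a mean of 1000 or more counts (0.26% higher, 0.221% lower). With spike-in scaling 43 did so, all lower, as did 66.2% of coding genes. A gene was held to be beyond counting error where the exact 95% binomial (Clopper-Pearson) interval of its share of counts in replicate 2 left out the scaled share of that library. This was so for 14 of the 50, against 37.2% of the coding genes and 42.7% of those with a mean of 1000 or more counts. Of the 14, 6 were higher in replicate 2 (background 19.1%, or 18.6% at the higher counts) and 8 were lower (18.1%, or 24.1%). With total-count scaling 9 were higher and 4 lower, and with spike-in scaling all 50 were lower. The intervals cover counting error only and compare 2 libraries, not conditions, and a share below the background is a description.

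Mki67 (chr7:135689784-135716361) was the member farthest from 0, with 6910 and 5725 counts and a log2 ratio of -0.33 (interval -0.38 to -0.28). Ndc80 (chr17:71496100-71526857) followed with 1470 and 1286 counts and -0.25 (interval -0.36 to -0.14), and Spc24, Smc2, Birc5, Cks1b, Cenpf and Top2a were lower by less, from -0.14 in Spc24 to -0.062 in Top2a. Higher in replicate 2 were Aurka, at 0.13 (interval 0.053 to 0.20), Kif23, Anln, Cks2, Ccnf and Racgap1, at 0.073 to 0.10 for the last 5. With total-count scaling Mki67 stood at -0.30 and Aurka at 0.16, and with spike-in scaling at -0.98 and -0.52. By role, 3 of 6 cytokinesis genes (all higher), 3 of 7 kinetochore genes and 3 of 7 chromosome genes (all lower) were beyond counting error under TMM. Either way, 37.2% of coding genes were, and 42.7% at a mean of 1000 or more counts. In 1 direction the shares were 19.1% and 18.6% higher, and 18.1% and 24.1% lower. These groups are small and their directions were not set in advance. With total-count scaling cytokinesis had 3 higher, kinetochore 2 lower, and chromosome 2 lower with 1 higher. None of the 4 checkpoint and 6 spindle genes was beyond it under TMM, and 1 spindle gene was, and was higher, with total counts. Leaving out Mki67 and Ndc80, a choice made after their values were seen, left 12 of 48 beyond counting error.

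**Figure D5:**
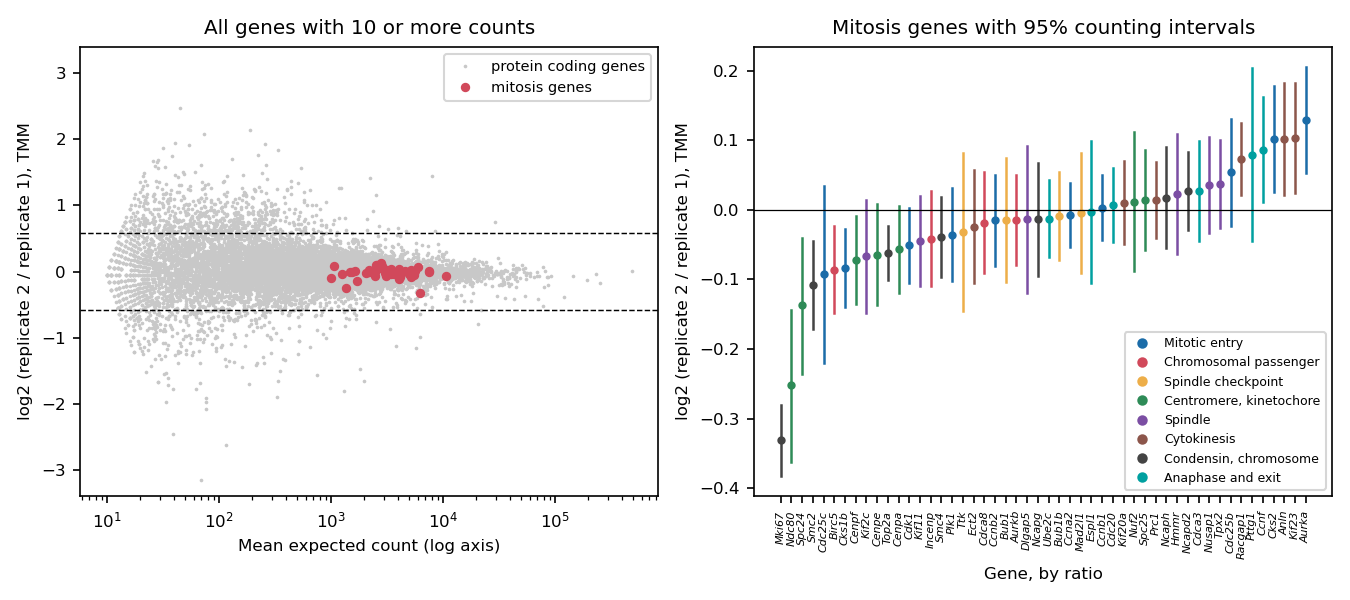
Left, log2 ratio of replicate 2 over replicate 1 (TMM scaling) against mean expected count (log axis) for coding genes (grey) and mitosis genes (red), with dashed lines at 1.5-fold. Right, the same ratio for each mitosis gene with its 95% counting interval, from Mki67 at -0.33 to Aurka at 0.13, with the other 48 between -0.25 and 0.10; spike-in scaling would place all 50 below 0.

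Markers of some cell types differed in level between the libraries. In bulk RNA, the share of a cell type and its marker RNA per cell cannot be told apart. The 6 cartilage markers were all higher in replicate 2, with summed levels of 439 and 734 TPM and a median log2 ratio of 0.66 under TMM, but 0.0053 under spike-in scaling. The 6 skeletal muscle markers were all lower under the 4 scalings tried, with summed levels of 3509 and 2632 TPM and a median of -0.41 under TMM. The 6 erythroid markers were likewise lower under all 4, at 26707 and 20217 TPM summed and -0.40. Bone markers (6 of 6 detected, median 0.011), epithelium (6 of 6, -0.12), macrophage (6 of 6, -0.034), neuron (6 of 6, 0.12) and face mesenchyme (6 of 6, 0.16, led by Msx1 at 152 TPM) had medians nearer 0 under TMM, each below 0 under spike-in scaling. Single markers in those lists went further, and Bglap of the bone list was listed at 28.6 and 14.5 TPM. All 6 epithelium markers were beyond counting error under TMM, 2 higher and 4 lower. So were 37.2% of coding genes, and 42.7% of those with a mean of 1000 or more counts (18.6% higher, 24.1% lower). Of 6 germ cell markers none reached 1 TPM in both libraries. Spike-ins took 2.91% and 4.59% of 37128010 and 38543623 expected counts. The part of these differences in the ratios of the mitosis genes was not tested.

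Overlapping and similar genes bear on many members. They were counted for the members only, so no share over all genes stands beside these counts. The sources used here give no strand setting, so reads of a member and of a gene on the other strand cannot be told apart where they overlap, as in 18 of the 50, 10 of them with a partner at 1 TPM or more in both libraries. Ube2c overlaps the muscle gene Tnnc2 over 1662 bases. Tnnc2 was listed at 424 and 301 TPM, whereas Ube2c was even at 238 TPM. Kif20a overlaps Cdc23, at 85.8 and 92.9 TPM, over 2327 bases, and Ccna2 overlaps Exosc9, at 46.9 and 40.8 TPM, over 863 bases. The longest such overlap is that of Prc1 with Rccd1, listed at 8.0 and 7.35 TPM, over 21810 bases. By the rule of 95% identity over 100 bases, 26 members shared a stretch with another gene, the most abundant being Malat1, which shares 151 bases with Spc24. Only Ccnb1 had a near copy over 50% or more of its leading transcript.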

How the data were processed

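Per the labels, total RNA was isolated with a mirVana kit, and libraries were made from 10 ng of RNA longer than 200 nucleotides. A manual for a low-input kit is linked too, and the sources do not say whether poly(A) RNA was selected. The authors quantified each library alone on assembly mm10 with annotation release 4 (M4), according to a deposited text file. Aligner, quantifier and strand use were not given in the sources used here. Per the file headers, the authors gave expected counts, TPM and FPKM for genes and transcripts, and the percent of a gene's TPM on each transcript. The authors' credibility bounds of TPM, recorded as a score, entered no comparison. Deposited TPM include spike-ins, and 97 spike-in and 26248 numbered rows of 69691 were left out of lists and ratios.

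Genes and transcript types were named by GENCODE release 21 (GRCm38), which held 42462 of 43346 identifiers, with coordinates from the same annotation. Expected counts were rounded to whole numbers and scaled by TMM (0.989 and 1.01, edgeR 4.0.16 in R 4.3.3), or by DESeq2 1.42.0 size factors, spike-in counts or total counts. Ratios took a prior count of 2 and genes reaching 10 counts in each library, and the scripts were tested on simulated data. Other steps used Python 3.11.15, numpy 2.4.6, pandas 2.3.3, scipy 1.17.1, matplotlib 3.10.9 and blastn 2.17.0. Both libraries form 1 group, so values are given as mean ± SD (n = 2) with no test.

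The members, roles, pathway lists, marker lists (cartilage, skeletal muscle, bone, epithelium, erythroid, macrophage, neuron, germ cell, face mesenchyme), complexes and pairs were chosen with earlier results of these data known. Values in both libraries were to be named for complexes, pairs, the highest and lowest members overall and in each role, members past 1.5-fold, and members whose leading transcript was not coding, changed or took under 50%; of each pathway list, the highest and lowest gene. Alternatives are another level unit, pseudocount, detection level, scaling, count filter, fold, transcript length or promoter window, and leaving out a library.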

Additional observations from a re-analysis of the deposited data

How the results depend on the processing

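Of 141 values recomputed under other settings, 97 were held to be unchanged. For levels, shares, ratios and spans this meant a move smaller than the spread used for each, and for signed ratios the same direction. For counts it meant lying within 1.5-fold of the main count. By that rule a CCAAT box in 22 genes from 50 before to 50 after was unchanged against 32. For sums, spans and pairs, leaving out a library stays within the spread by construction. All 50 genes remained detected at 0.5 TPM, at 5 TPM and by posterior mean TPM. The 2 other TPM limits and leaving out a library could not change this count, as no gene lay under 9.50 TPM. The other count filters could not change a result either, as each gene had 996 or more counts. The 97 include these values. The median level of 53.4 TPM became 58.2 when TPM were rescaled to mouse genes, 35.5 in FPKM units, 58.9 and 58.6 as the mean of log2(TPM + 1) and log2(TPM + 0.1) turned back, and 45.4 on the longest coding transcript, and 52.1 to 55.1 leaving out a library. The summed level became 3886 by posterior mean and 4305 rescaled, and 3912 to 3983 leaving out a library. The median log2 ratio of -0.013 turned to 0.018 with total counts and became -0.67 with spike-ins, where 43 genes passed 1.5-fold and 50 were beyond counting error (88.3% of coding genes). At the lower of the 2 other fold limits tried, 1 gene, Mki67, passed, against 15.8% of coding genes. The median leading share became 88.8% by posterior mean and 92.2% by expected counts, and 89.8% to 90.4% leaving out a library. Using only the leading coding transcript, the span was 2.27-fold for NDC80, 3.81-fold for condensin I and 2.19-fold for centralspindlin (2.97-fold by posterior mean), on near full-length coding transcripts 8.49-fold for condensin I, 18.7-fold for the passenger complex and 2.61-fold for centralspindlin, and on the longest coding transcript 1.73-fold for condensin I, 1.91-fold for the passenger complex and 2.61-fold for centralspindlin. Leaving out a library gave 3.45 to 4.13, 4.03 to 4.15, 4.06 to 4.26 and 2.88 to 2.93 for NDC80, condensin I, the passenger complex and centralspindlin. The CHR was found in 17 of 41 genes in the 250 bases before the start, in 11 in the 100 bases before it, in 32 in the whole window and in 29 from 50 before to 50 after. Of 65 recomputed pair values 49 moved by less than their spread, 16 moved more and 0 turned. The 49 include every value that left out a library. Such a value cannot move by more than this spread, which comes from the same 2 libraries. The window of 50 before to 50 after, the longest and the near full-length coding transcripts and the sets without Mki67 and Ndc80 were chosen after seeing the data. No paired analysis was possible because there is only 1 group. The cause of each shift was not tested. Each gene had 996 or more counts in each library, and the spread rests on 2 libraries.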

Other observations

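Cohesin, the ring that holds sister chromatids together until separase cuts it, was detected in 15 of 15 genes at a median of 20.6 ± 1.27 TPM, from the shugoshin gene Sgo2a at 10.9 ± 1.43 TPM to the ring subunit Smc1a at 78.0 ± 0.0849 TPM. Of the 15, 6 were beyond counting error and lower in replicate 2 and 2 were higher under TMM scaling, where 37.2% of coding genes were beyond it. By direction, 18.1% of coding genes were lower and 19.1% higher. At a mean of 1000 or more counts, 24.1% were lower and 18.6% higher. Other scalings were not tried for this list. The 13 centrosome genes were all detected at a median of 9.79 ± 0.544 TPM, from Cep192 at 5.57 ± 0.375 TPM to the gamma-tubulin gene Tubg1 at 56.8 ± 1.23 TPM. That median lies below those of all 8 role groups of mitosis genes.

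Of 11 paralogs and partners known from germ cells, 5 reached 1 TPM in both libraries. Ccna1, the germline relative of Ccna2, was the highest, at 4.95 TPM in replicate 1 and 9.05 TPM in replicate 2, and lay below Ccna2 by 3.99 ± 0.61 on the log2 scale. Spo11, which cuts DNA in meiosis, was listed at 3.48 and 5.13 TPM, and the meiotic cohesin gene Stag3 at 3.95 and 4.13 TPM. Aurkc was listed at 0, and of the 6 germ cell markers none reached 1 TPM in both libraries. Spo11 and Stag3 were picked after their values were seen.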
